A study of Mus musculus with 7 samples.

Results

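The major urinary proteins Mup1, Mup3, Mup4 and Mup5 are small secreted carrier proteins of the mouse. They were measured by 7 probes that carry one of these names, 3 for Mup1, 2 for Mup3 and 1 each for Mup4 and Mup5, out of 41138 usable probes for 27583 genes and unnamed features. The 4 genes were chosen by their levels on these same arrays, so their levels and differences are given as a description, with no test. RNA was measured on 7 Agilent 1-colour arrays, of which 1 held hepatocytes from adult mouse liver, 3 held induced hepatocyte-like cells (iHep) made from embryonic fibroblasts, and 3 held mouse embryonic fibroblasts (MEF). All cells had the C57BL/6 background, each MEF sample came from embryos of 13.5 days post coitum prepared on their own, and the iHep arrays were 1 each of the types 4α1, 4α2 and 4α3, called types 1, 2 and 3 here. The study is known to have made iHep cells by introducing Hnf4a together with a Foxa factor. The age of the adult mice and the sex of any animal are not given in the sources used here.

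Major urinary proteins belong to the lipocalins, which fold into a barrel that holds small fat-soluble molecules. In adult mice the liver secretes them into the blood, the kidney passes them into urine, and there they bind and slowly release pheromones. Their genes form a tandem cluster of near-identical copies on chromosome 4, and liver transcription of many of them depends on growth hormone, whose pulses act through the receptor Ghr and the factor STAT5b and differ between males and females. Mup4 and Mup5 are also known from lacrimal, nasal or salivary glands.

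The promoters of Mup4 and Mup3 are shown because the genes of the cluster were high in the same sample, and because both promoters share letters that a reader can compare. They are the 250 bases before each transcript start, from the RefSeq promoter table of build GRCm38.p6. The table matched 2 of the 4 genes. Mup4 lies at chr4:59960668-59960917 and Mup3 at chr4:62087318-62087567, both on the minus strand, and capitals mark the letters TATATAA and ATCAAT.
Mup4: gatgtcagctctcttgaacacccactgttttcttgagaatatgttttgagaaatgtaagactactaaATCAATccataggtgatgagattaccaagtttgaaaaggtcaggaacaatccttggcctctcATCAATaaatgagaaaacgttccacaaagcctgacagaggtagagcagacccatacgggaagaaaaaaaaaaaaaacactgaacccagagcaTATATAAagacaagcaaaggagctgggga
Mup3: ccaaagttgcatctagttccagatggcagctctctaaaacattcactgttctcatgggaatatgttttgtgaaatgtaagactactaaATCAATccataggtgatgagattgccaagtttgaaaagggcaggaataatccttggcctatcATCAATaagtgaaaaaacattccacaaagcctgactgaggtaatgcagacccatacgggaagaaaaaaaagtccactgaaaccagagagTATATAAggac
The TATATAA run, a TATA element, began 29 bases before the annotated start of Mup4 and 11 bases before that of Mup3. It was found in 11 of the 14 Mup promoters in the table, against 3.04% of all 32851 windows of the same length. ATCAAT, letters bound by HNF6 (the product of Onecut1), began 183 and 121 bases before the start of Mup4 and 162 and 100 bases before that of Mup3. It was found in all 14 Mup promoters and in 6.72% of all windows. On both strands, none of the 14 windows held the STAT palindrome TTCNNNGAA (7.02% of all windows), the C/EBP letters TTGCNNAA (9.56%) or the steroid receptor letters ACANNNTGT (5.84%). These are matches of letters in short windows and the marked matches did not overlap. The 14 promoters belong to near-identical copies, so they are not independent observations beside the shares of all windows. Over all 91 pairs of the 14 promoters, with 50 bases after the start included, aligned bases were 83.3% to 100% identical with a median of 93.4%, and Mup4 and Mup3 were 89.2% identical.

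All 7 probes were well above background on the hepatocyte array, where their levels ran from 4.95 to 9.995. A level is log2 of a probe's signal minus the 75th percentile of the array, so 0 is the 75th percentile. Among iHep cells 2 of the 7 probes were well above background in type 1, 3 in type 2 and 1 in type 3. Among MEF arrays 4 were so on MEF 1, 1 on MEF 2 and 2 on MEF 3, and outside hepatocytes no member probe exceeded a level of -1.20. The 75th percentile itself was a signal of 608 on the hepatocyte array, 714 to 849 on the iHep arrays and 805 to 1484 on the MEF arrays, and the share of all probes well above background was 60.2% to 68.7%. The arrays MEF 2 and MEF 3 differed about as little as repeated spots of 1 probe do and were counted as 1 sample, so that n is 1 for hepatocytes, 3 for iHep cells and 2 for MEF. The hepatocyte array also stood alone on its slide, so slide and cell type cannot be told apart for it, whereas MEF 1 shared a slide with the 3 iHep types.

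**Figure D1:**
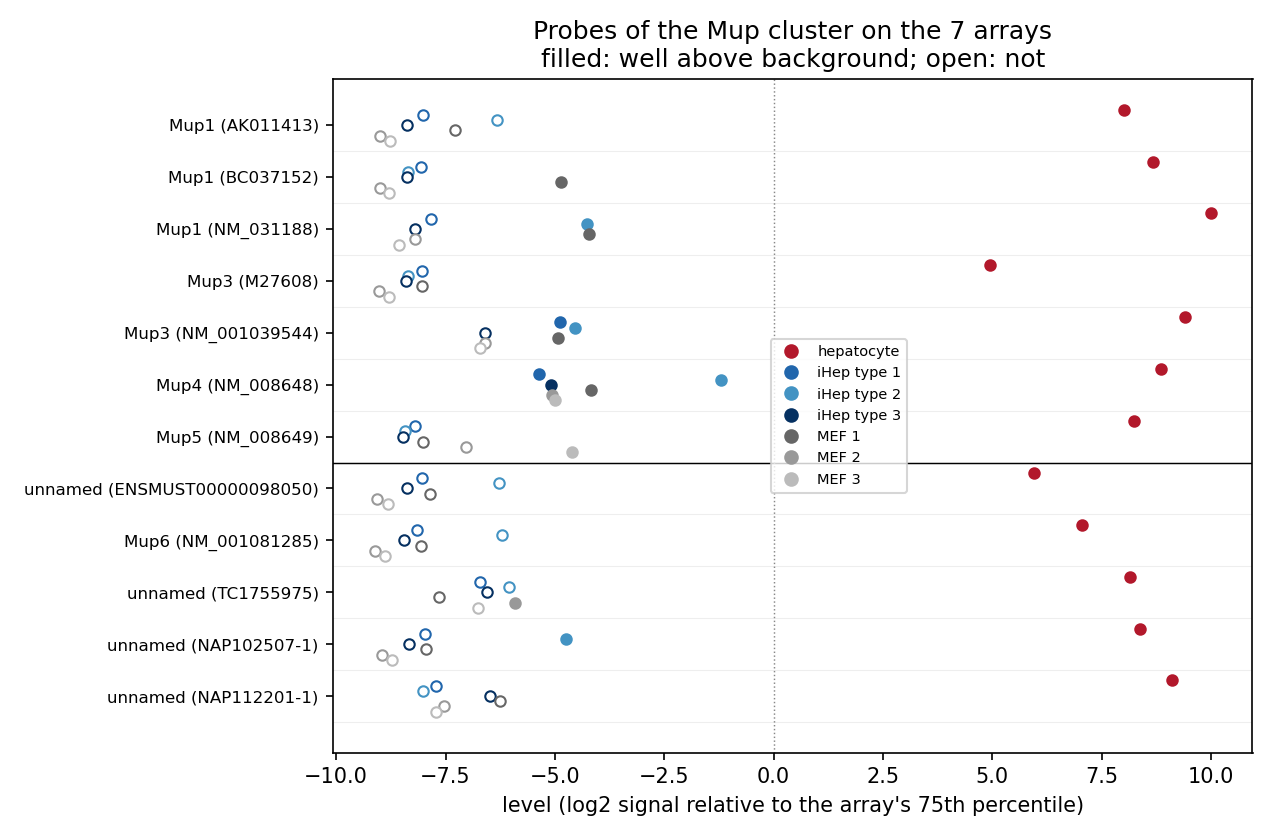
Level of each probe of the Mup cluster (rows) on each of the 7 arrays, in log2 units above or below that array's 75th percentile. Filled points were well above background and open points were not, and the line divides the 7 probes of Mup1, Mup3, Mup4 and Mup5 from 5 further probes of the cluster. All 12 hepatocyte points lie at 4.95 or above, and every other point lies at -1.20 or below.

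Mup4, a lipocalin also known from lacrimal and nasal tissue, was the one member well above background on all 7 arrays. Its processed signal was 281768 in hepatocytes, 17.3, 370 and 23.1 in iHep types 1, 2 and 3, and 44.5, 44.3 and 44.2 on MEF arrays 1, 2 and 3. The level was 8.86 in hepatocytes, -5.36, -1.20 and -5.08 in iHep types 1, 2 and 3, and -4.18, -5.07 and -5.00 on the MEF arrays. Hepatocytes were far above every other array, iHep type 2 was next, and iHep types 1 and 3 lay just below the lowest MEF array, so that the MEF arrays fell between the iHep types. The 3 MEF arrays had nearly the same signal, and their levels differ because their 75th percentiles do. In iHep cells the mean level was -3.88 ± 2.33 (SD, n = 3), against -4.61 ± 0.60 (SD, n = 2) in MEF, a log2 difference of 0.72 that was within the spread between the iHep types. Hepatocytes were 6829-fold above the iHep mean (log2 difference 12.74) and 11277-fold above the MEF mean (13.46). Set against single types, hepatocytes were 1064-fold above type 2, 19069-fold above type 1 and 15691-fold above type 3. Type 2 was 16.3-fold above the mean of types 1 and 3, with no replicate array for any type, and 2.98 log2 units above MEF 1 on the same slide. The probe lies on chromosome 4 at 60051006 to 60051065 (build mm8, minus strand).

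**Figure D2:**
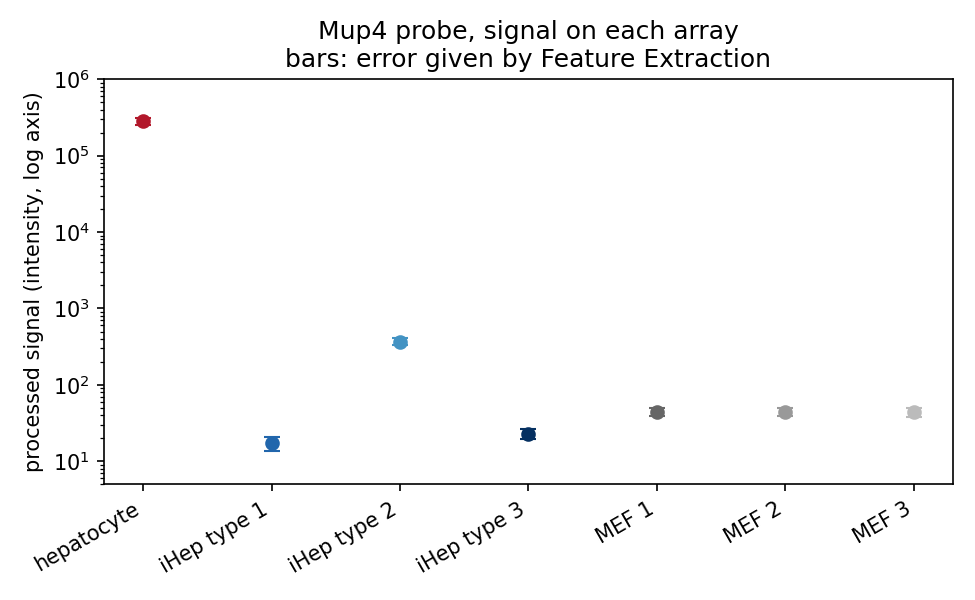
Processed signal of the Mup4 probe on each array, on a log axis, with hepatocytes at the left, then iHep types 1 to 3 and MEF arrays 1 to 3. Bars are the error that Feature Extraction gives each signal, for example 370 ± 37.1 in iHep type 2 against 17.3 ± 3.49 in type 1.

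Mup1, an abundant urinary form in many strains, had 3 probes. The probe designed on NM_031188 had levels of 9.995 in hepatocytes, -7.84, -4.27 and -8.20 in iHep types 1, 2 and 3, and -4.21, -8.19 and -8.57 on the MEF arrays. It was well above background in hepatocytes, in iHep type 2 and on MEF 1, where signals were 620844, 44.1 and 43.5. Type 2 and MEF 1 thus had similar dim signals, and the other 4 arrays were at background. Hepatocytes were at least 44146-fold above iHep cells and at least 44796-fold above MEF, and 1 of 3 arrays in each of these groups measured the probe. "At least" means that each array that was not well above background was set to its lowest level well above background, or to the probe's own level where that was higher. Against type 2 alone the fold was 19637. This probe also carries transcript identifiers of Mup2 and Mup5 in the scanner file, so the copies cannot be told apart by it.

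The second Mup1 probe, designed on BC037152, read 8.67 in hepatocytes, -8.05, -8.35 and -8.39 in iHep types 1, 2 and 3, and -4.85, -9.01 and -8.79 on the MEF arrays. MEF 1 was the only array besides hepatocytes that was well above background, and hepatocytes were at least 27119-fold above iHep cells and at least 22414-fold above MEF. The third, designed on AK011413, read 8.01 in hepatocytes, -8.01, -6.33 and -8.38 in iHep types 1, 2 and 3, and -7.29, -8.99 and -8.77 on the MEF arrays. No iHep or MEF array was well above background for it, and hepatocytes were at least 17081-fold above iHep cells and at least 19154-fold above MEF. The clone behind this probe is now assigned to Mup10 in the RefSeq gene table, so its reading may belong to that copy. In the scanner file the 3 probes lie on chromosome 4 (mm8, minus strand) at 60473446 to 60473669, 61004429 to 61005728 and 60555070 to 60555129.

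Mup3 had 2 probes that differed in how far they reached above background. The probe designed on NM_001039544 read 9.41 in hepatocytes, -4.88, -4.54 and -6.59 in iHep types 1, 2 and 3, and -4.94, -6.59 and -6.71 on the MEF arrays. It was well above background in hepatocytes, iHep types 1 and 2, and MEF 1, where signals outside hepatocytes were 24.2, 36.5 and 26.3. Hepatocytes were at least 24881-fold above iHep cells and at least 36927-fold above MEF, with 2 of 3 iHep arrays and 1 of 3 MEF arrays well above background. The probe designed on M27608 read 4.95 in hepatocytes and was well above background nowhere else, with -8.04, -8.37 and -8.40 in iHep cells and -8.03, -9.02 and -8.80 in MEF. Hepatocytes were at least 2055-fold above iHep cells and at least 2304-fold above MEF by this probe. Both probes thus had the same direction in hepatocytes. They lie on chromosome 4 (mm8, minus strand) at 61569827 to 61569875 and 61570066 to 61570814.

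Mup5, known from salivary glands as well as liver, read 8.24 in hepatocytes, -8.20, -8.43 and -8.47 in iHep types 1, 2 and 3, and -8.02, -7.04 and -4.61 on the MEF arrays. Besides hepatocytes it was well above background on MEF 3 alone, with a signal of 57.8, against 11.3 on MEF 2. This dim reading thus came from 1 array of the pair that was counted as 1 sample. Hepatocytes were at least 20053-fold above iHep cells and at least 15958-fold above MEF. The probe lies on chromosome 4 at 61321424 to 61321483 (mm8, minus strand).

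Mup4 was measured on every array, and the other 6 probes gave lower bounds. With these bounds the log2 difference across the 7 probes was at least 11.005 to 15.43 between hepatocytes and iHep cells and at least 11.17 to 15.45 between hepatocytes and MEF. Over all 19133 genes tested the median differences were 0.17 and 0.14. Apart from Mup4, no member probe was measured on enough arrays to set iHep cells against MEF. In hepatocytes 6 of the 7 probes were read from the low-gain scan of the array and the M27608 probe was not. None was marked as saturated, and the brightest, Mup1 by NM_031188, had a mean signal at 91.6% of the scanner's saturation value. Since the copies are nearly identical, signal of one copy on a probe named for another was not separated, and in RNA from many cells fewer expressing cells and less RNA per cell cannot be told apart.

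The scanner file places 5 further probes inside the same stretch of chromosome 4, all of them chosen after their values were seen except Mup6. They comprise 3 described as major urinary proteins, among them Mup6, and 2 unnamed features placed there by position. Every one was well above background in hepatocytes, at 7.05 for Mup6 and at 5.95, 8.16, 8.39 and 9.12 for the others. Mup6, another copy of the family, read -8.16, -6.22 and -8.46 in iHep types 1, 2 and 3 and -8.06, -9.11 and -8.88 in MEF, none of them well above background, and hepatocytes were at least 8816-fold above iHep cells. The unnamed feature NAP102507-1 was well above background in iHep type 2 as well, at -4.74, with -7.96 and -8.34 in types 1 and 3. Of all 12 probes of the cluster, 4 were well above background in iHep type 2, 2 in type 1 and 1 in type 3. The 12 probes are not independent observations of type 2, since all come from 1 array and near-identical genes.

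The hepatocyte label was checked against markers. All 13 hepatocyte markers with a probe were well above background on the hepatocyte array, with a summed level of 11.44, against 8 or 9 of 13 and summed levels of 5.72 to 8.63 on the iHep arrays and 4 or 5 of 13 and -1.35 to -1.31 on the MEF arrays. Markers of other liver cells were also present on that array, with 5 of 5 macrophage markers (summed level 2.23, Clec4f at 1.46) and 4 of 4 endothelial markers (2.54, Kdr at 1.64), against -2.39 to -1.31 and -3.53 to -3.47 on the iHep arrays and 1.39 to 2.11 and -0.22 to 0.58 on the MEF arrays. The macrophage markers did not all go the same way against MEF. Of 5 tested, 1 was called higher and 1 lower in hepatocytes than in MEF (limma, 28.4% and 25.1% of all genes). The median difference was -0.47. Against iHep cells 3 were higher and 0 lower (27.1% and 22.1% of all genes), with a median of 6.91. Fibroblast markers summed to 3.58 in hepatocytes, 5.73 to 7.34 in iHep cells and 9.76 to 9.90 in MEF. Bile duct markers summed to 0.15 in hepatocytes, 7.30 to 7.54 in iHep cells and 2.02 to 2.07 in MEF, with 4 of 4 well above background in hepatocytes and iHep cells and 3 of 4 in MEF. Fetal liver markers summed to -0.39 in hepatocytes, 7.21 to 7.75 in iHep cells and 8.25 to 8.56 in MEF. These sums hide opposite members. Of 4 tested, Afp was called higher and Igf2 lower in iHep cells than in MEF (limma, 10.1% and 13.2% of all genes). The Afp call was lost in 4 of 15 alternatives, where its log2 difference was still 6.92 to 8.44. Of 5 markers of submaxillary and lacrimal glands, which also make some of these proteins, 1 was well above background in hepatocytes and 2 on each iHep and MEF array, with summed levels of -3.10 in hepatocytes, -1.21 to -0.27 in iHep cells and -1.75 to -1.61 in MEF. Among them Smr3a, Prol1 and Bpifa2 were well above background on none of the 7 arrays. The part of these other cells in the readings was not tested.

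Genes of the growth hormone axis were set beside the members because liver Mup transcription is known to depend on it. Of 13 tested genes, 7 were higher and 1 lower in hepatocytes than in iHep cells, where 27.1% and 22.1% of all 19133 genes tested were called higher and lower (limma, Benjamini-Hochberg adjusted p under 0.05). Against MEF, 8 of 13 were higher in hepatocytes and 0 lower, beside 28.4% and 25.1% of all genes. The count of 8 became 5 without MEF 2 and MEF 3 together. The gene lower than in iHep cells was Jak2, the kinase of the receptor (adjusted p = 0.036, limma), a call lost without MEF 1, without iHep type 1 and in 3 other alternatives (adjusted p up to 0.072). The median difference over the list was 1.99 for hepatocytes against iHep cells and 3.21 against MEF. All p-values here measure the spread between these samples, which for iHep cells is the spread between types, and the lone hepatocyte array is assumed to vary like the other groups.

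Ghr, the growth hormone receptor, had levels of 5.15 in hepatocytes, 0.94, 1.56 and 0.32 in iHep types 1, 2 and 3, and 3.10, 3.27 and 3.20 in MEF. The iHep arrays were the lowest and did not overlap either other group. Hepatocytes were 4.22 ± 0.50 log2 units (SE) above iHep cells (adjusted p = 0.00273) in the limma fit. The difference of iHep cells minus MEF was -2.23 ± 0.40 (SE, adjusted p = 0.0185 in limma), a call that was lost in 5 of 15 alternatives, among them without MEF 1 and without iHep type 1 (adjusted p up to 0.109). Stat5b, the transcription factor downstream of the receptor, was at 3.41 in hepatocytes, 1.15, 1.64 and 1.68 in iHep cells, and 1.16 ± 0.06 in MEF (SD, n = 2). Hepatocytes were 1.92 ± 0.30 above iHep cells (adjusted p = 0.00625, limma), while iHep cells and MEF differed by 0.33 (adjusted p = 0.373). Stat5a, its paralogue, was at -0.05 in hepatocytes, 0.06 to 0.56 in iHep cells and -0.41 to 0.39 in MEF, and did not pass the test in any comparison. Of the genes known to respond to growth hormone in liver, Igfals and Igf1 passed the test between hepatocytes and iHep cells. Igfals, the acid-labile subunit that carries IGF1 in blood, was 616-fold above iHep cells (adjusted p = 0.000228, limma), and Igf1 was 521-fold above them (adjusted p = 0.0078). Igf1 read 6.57 in hepatocytes, -1.30, -1.25 and -4.82 in iHep types 1, 2 and 3, and 1.07, 1.67 and 1.59 in MEF. Its hepatocyte level was 37.2-fold above MEF (adjusted p = 0.0444, limma), a call lost in 6 of 13 alternatives. Between hepatocytes and iHep cells the feedback inhibitors Socs2, Cish and Socs3 differed by 1.99, 1.80 and -0.78 and did not pass (adjusted p = 0.141, 0.187 and 0.454, limma). Cux2, a female-biased repressor, was well above background on none of the 7 arrays. Of this list 1 gene rose in iHep cells against MEF, Insr, and 1 fell, Ghr, where 10.1% and 13.2% of all genes were called. The Insr call was also lost without MEF 1 and in 4 other alternatives. The other Insr probe had the opposite sign, and the mean of both probes gave a difference of 0.24 (adjusted p = 0.446, limma) instead of 1.30.

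Transcription factors reported for Mup genes or for adult liver expression were all detected in hepatocytes. Of the 19, 13 were higher and 0 lower in hepatocytes than in iHep cells (27.1% and 22.1% of all genes), a count that became 8 without iHep type 1, and 12 were higher and 0 lower than in MEF (28.4% and 25.1%). In iHep cells against MEF 4 rose and 1 fell (10.1% and 13.2% of all genes), and the count of 4 became 2 without MEF 1 and within the shared slide. Hnf4a, the nuclear receptor that the study introduced, was at 4.56 in hepatocytes, -0.55, -2.59 and 1.56 in iHep cells, and at background in MEF. Whether its probe reads the introduced copy was not tested. Onecut1, whose product binds the ATCAAT letters printed above, read 2.24 in hepatocytes, -4.23, -5.17 and 0.16 in iHep types 1, 2 and 3, and -6.65, -5.77 and -5.80 in MEF. It passed the test between hepatocytes and MEF (adjusted p = 0.028, limma), a call lost without MEF 1 or without MEF 2 and MEF 3 together (adjusted p up to 0.103). Onecut1 did not pass between hepatocytes and iHep cells (adjusted p = 0.0914, limma) or between iHep cells and MEF (adjusted p = 0.234). Type 3, the highest of the iHep types for Onecut1, was not well above background for 6 of the 7 member probes. The relation of Onecut1 to the member probes was not tested, and each type was 1 array. Cebpa, a basic leucine zipper factor of adult liver, was at 4.93 in hepatocytes, 0.62, 0.49 and -0.42 in iHep cells, and -0.78, -1.46 and -1.44 in MEF. Hepatocytes were 26.0-fold above iHep cells (adjusted p = 0.00225), and the iHep cells were 2.54-fold above MEF without passing the test (adjusted p = 0.0765, limma). Nr1i3, the constitutive androstane receptor, was 119-fold higher in hepatocytes than in iHep cells (adjusted p = 0.000644, limma). Zhx2, a transcription factor reported to act on Mup genes in mouse liver, was at -2.49 in hepatocytes, -5.39, -5.69 and -4.13 in iHep cells, and -4.72, -4.12 and -4.18 in MEF. Its difference of 2.58 between hepatocytes and iHep cells (adjusted p = 0.0289, limma) was lost in 4 of 13 alternatives, without MEF 1, without MEF 2 and MEF 3, without iHep type 1 and without iHep type 2 (adjusted p up to 0.0711).

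**Figure D3:**
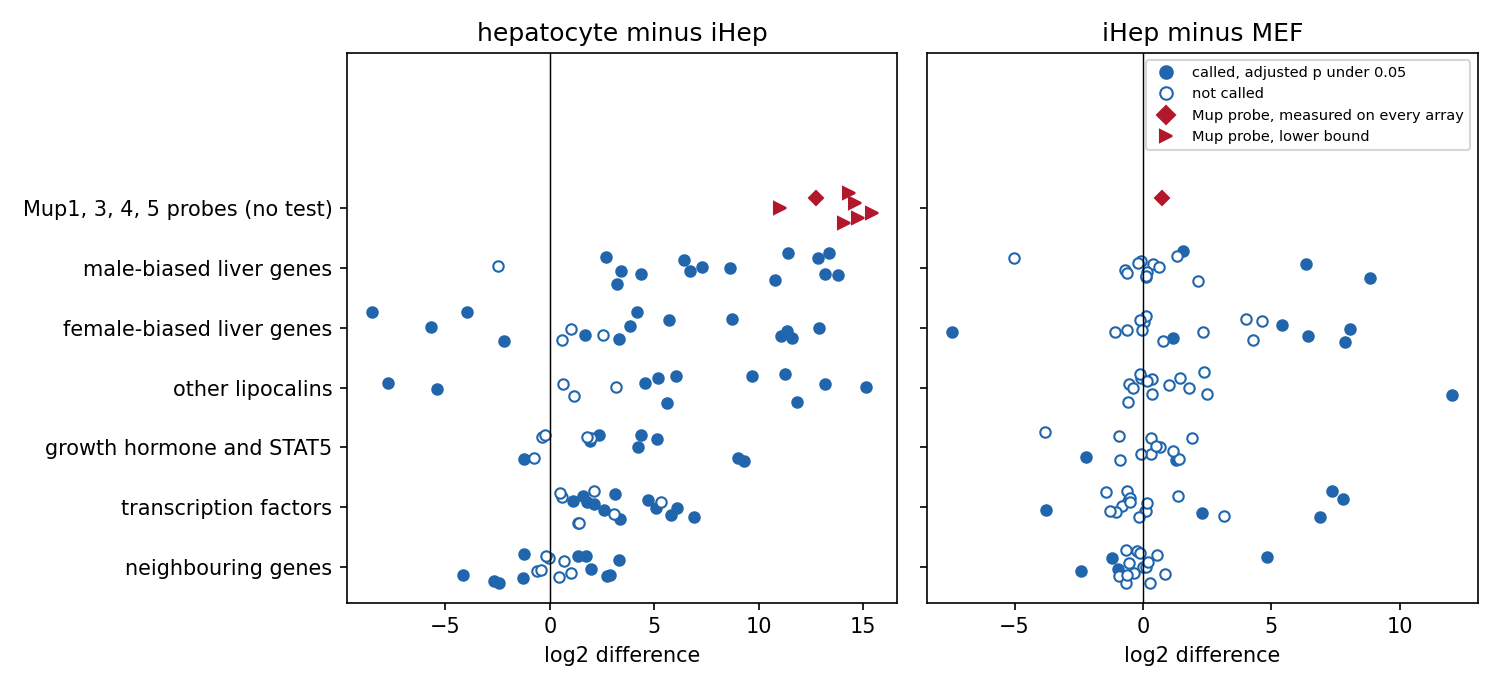
Log2 difference between hepatocytes and iHep cells (left) and between iHep cells and MEF (right) for member probes, which were not tested, and for the tested genes of 6 lists. The diamond is Mup4, measured on every array, triangles are lower bounds for the other 6 member probes, and the right panel shows Mup4 alone. Filled circles were called by limma at an adjusted p under 0.05, and fitted values of genes at background in 1 group depend on that background reading. Member probes lie at 11.005 or above on the left, and Mup4 lies at 0.72 on the right.

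Other male-biased liver genes, which like many Mup genes are known to be higher in male than in female mouse liver, behaved differently from gene to gene in iHep cells. Of 15 tested, 14 were higher and 0 lower in hepatocytes than in iHep cells (27.1% and 22.1% of all genes), and 14 were higher and 1 lower than in MEF (28.4% and 25.1%). Median differences were 7.27 and 10.74. The lower gene was Moxd1, a monooxygenase-like protein (adjusted p = 0.029, limma), a call lost without MEF 1, without MEF 2 and MEF 3 together and without iHep type 1 (adjusted p up to 0.106). In iHep cells against MEF 3 rose and 0 fell (10.1% and 13.2% of all genes), with a median of 0.15, and the 3 became 1 without MEF 1 and within the shared slide. The male-biased genes Hsd3b5, a steroid-metabolising enzyme, Elovl3, a fatty acid elongase, Ugt2b1, a glucuronosyltransferase, Slco1a1, an organic anion transporter, and C8b, a complement subunit, were well above background in hepatocytes alone. Hsd3b5 read 5.32 in hepatocytes, -8.12, -8.38 and -7.68 in iHep cells, and -7.91, -9.08 and -8.84 in MEF. It was at least 2653-fold higher in hepatocytes than in iHep cells. Elovl3 was at least 3086-fold and C8b at least 2990-fold higher. Genes well above background in hepatocytes alone entered the test only through that array, so the filter fixed their direction. They are given no p-value here, and they add to the counts of higher genes above. Cyp4a12a, a fatty acid hydroxylase, was detected everywhere but was 2701-fold higher in hepatocytes than in iHep cells (adjusted p = 0.000177, limma), and iHep cells and MEF differed by -0.09. By contrast Selenbp2, a selenium-binding protein, was at 8.72 in hepatocytes, 4.73, 5.15 and 6.02 in iHep types 1, 2 and 3, and -0.87, -1.28 and -1.26 in MEF, so that the iHep cells were 82.7-fold above MEF (adjusted p = 0.00153, limma). Serpina1e, an antitrypsin of the serpin cluster, was at 8.55 in hepatocytes, 1.53, 3.32 and -1.01 in iHep cells and at background in MEF, and its call between iHep cells and MEF (at least 181-fold, adjusted p = 0.0105) was lost without MEF 1 and within the shared slide (adjusted p up to 0.0777).

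Female-biased liver genes were examined in the same way. Of 17 tested, 10 were higher and 4 lower in hepatocytes than in iHep cells (median 3.30, 27.1% and 22.1% of all genes), and 12 were higher and 3 lower than in MEF (median 4.09, 28.4% and 25.1% of all genes), where the 12 became 7 without MEF 2 and MEF 3 together. In iHep cells 5 rose and 1 fell against MEF (median 1.18, 10.1% and 13.2% of all genes), and the 5 became 2 without MEF 1 and within the shared slide. A1bg, Sult3a1 and Hao2, which are known for strong female bias in mouse liver, were well above background on none of the 7 arrays. The Cyp3a genes of the list were high in hepatocytes nonetheless. Cyp3a41a read 9.19 in hepatocytes, -4.94, 0.98 and -2.59 in iHep types 1, 2 and 3, and -6.03, -6.06 and -6.60 in MEF, and was 2645-fold higher in hepatocytes than in iHep cells (adjusted p = 0.0116, limma). Its near-identical relatives Cyp3a44 and Cyp3a16 had the same order, with type 2 highest among iHep cells at -0.39 and -1.31, and may share signal with it.

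Other lipocalins, the wider family of the major urinary proteins, were examined next. Of 14 tested, 9 were higher and 2 lower in hepatocytes than in iHep cells (median 5.39, 27.1% and 22.1% of all genes), and 10 were higher and 1 lower than in MEF (median 6.57, 28.4% and 25.1% of all genes). Ambp, the precursor of alpha-1-microglobulin, read 9.87 in hepatocytes, -7.46, -4.79 and -3.47 in iHep types 1, 2 and 3, and -7.16, -6.40 and -6.02 in MEF. Hepatocytes were 35255-fold above the iHep mean, and iHep cells differed from MEF by 1.45 (adjusted p = 0.435, limma). The Ambp readings of iHep type 1 and MEF 1 lay below those arrays' lowest levels well above background (-5.88 and -5.73). Both differences thus include background readings, and the fold depends on them. Neither iHep cells nor MEF were well above background for Ambp on every array, so it entered the test only through the hepatocyte array. The filter thus favoured a higher level there, and no p-value is given for that difference. Orm1, an acute-phase carrier protein, was well above background in hepatocytes alone, at 5.30, and was at least 2619-fold higher there than in iHep cells. It entered the test only through that array, so the filter fixed its direction. Rbp4, the plasma carrier of retinol, was at 9.37 in hepatocytes, 4.36, 5.80 and 2.40 in iHep cells, and 1.88, 1.51 and 1.47 in MEF. All iHep values of Rbp4 were above the MEF values, but the difference did not pass the test (adjusted p = 0.138, limma). The single lipocalin that rose in iHep cells against MEF, where 10.1% of all genes did, was Lcn2, an iron-siderophore binder of epithelia and inflammation, at 4.33, 4.26 and 2.54 in types 1, 2 and 3, against background in MEF (at least 974-fold, adjusted p = 0.000986). In hepatocytes Lcn2 was at -4.06, which was 218-fold below the iHep cells (adjusted p = 0.00215, limma).

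The 10 nearest genes with a probe on each side of the cluster gave counts near those of all genes. Of 18 tested, 6 were higher and 5 lower in hepatocytes than in iHep cells (median 0.19, 27.1% and 22.1% of all genes), and 4 were higher and 7 lower than in MEF (median -0.04, 28.4% and 25.1% of all genes), where the 7 became 3 without MEF 1. In iHep cells 1 rose and 3 fell against MEF (10.1% and 13.2% of all genes), and the 3 became 1 without MEF 1, without MEF 2 and MEF 3 together and without iHep type 1. Slc46a2, the nearest on the side of Mup4, was not well above background in hepatocytes or iHep cells and was not tested. Zfp37, a zinc finger protein and the nearest on the other side, was at -3.17 there, against -2.14, -1.84 and -1.64 in iHep cells (adjusted p = 0.0169, limma). Snx30, a sorting nexin, was at -1.06 in hepatocytes, -2.38, -2.12 and -2.67 in iHep cells, and -0.08, 0.10 and 0.07 in MEF, which placed hepatocytes between the groups. Its call between hepatocytes and iHep cells (adjusted p = 0.0179) was lost without iHep type 1 (adjusted p = 0.0513, limma). Slc31a1, a copper importer, was 3.32 log2 units higher in hepatocytes than in iHep cells (adjusted p = 0.00123, limma). Bspry was the one neighbour that rose in iHep cells, at -1.74, 0.50 and -0.21 in types 1, 2 and 3, against -5.53, -5.19 and -4.95 in MEF (adjusted p = 0.0105, limma), and that call was lost within the shared slide and without MEF 1 (adjusted p up to 0.0784).

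**Figure D4:**
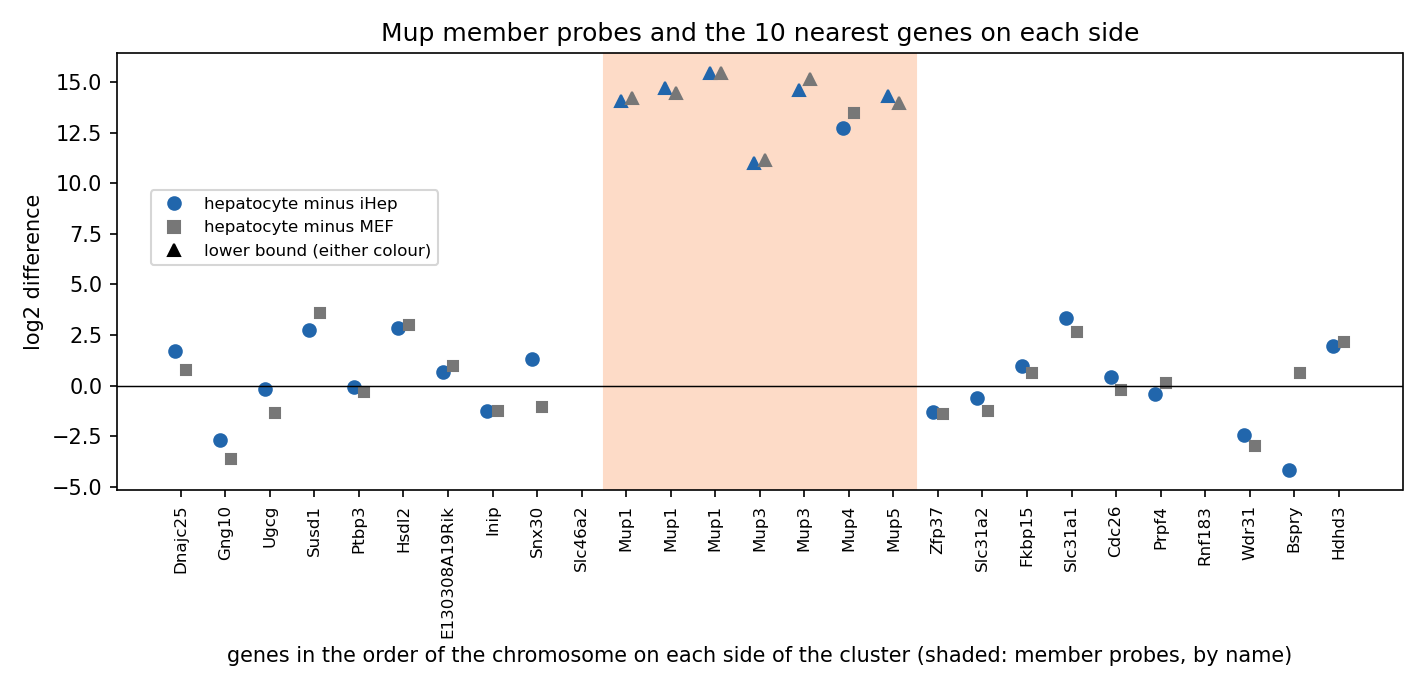
Log2 difference of hepatocytes against iHep cells (circles) and against MEF (squares) for the tested ones among the 10 nearest genes with a probe on each side of the Mup cluster, in chromosomal order, and for the 7 member probes (shaded, ordered by name). Triangles are lower bounds, member probes lie at 11.005 or above, and no neighbour exceeds 3.61.

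The genes most like Mup4, the member brightest over all arrays, were found by the root mean square difference over the 6 samples after each probe's own mean was subtracted. They were Hsd17b13 (0.42 log2 units), Hal (0.43), Gc (0.55), Otc (0.56), Ces1b (0.59), Hgd (0.64), Mat1a (0.65) and Mug2 (0.70). Hsd17b13, a lipid droplet enzyme, read 5.46 in hepatocytes, -7.87, -4.74 and -8.20 in iHep types 1, 2 and 3, and -7.90, -8.82 and -8.57 in MEF. All 8 were well above background in hepatocytes and in iHep type 2, and none of the 8 was so in types 1 or 3. For the Mup1 probe on NM_031188, a list added after values were seen, the nearest probes differed by 1.22 to 1.57, and 4 of the 8 (Cyp3a25, Slco1b2, Gys2 and Aadac) were not well above background in type 2. The hepatocyte array carries most of each profile, so the measure mainly orders genes by the size of that difference and the reading in type 2.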

How the data were processed

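RNA of 7 cell samples was labelled with Cy3, 1 array each, per the labels' protocols. The scanned images were quantified by Agilent Feature Extraction 9.5.1.1, per the submitters' processing notes. The authors deposited scanner output with a background-corrected intensity per spot, not scaled between arrays, its error, and other columns of 0 or 1 flags for outliers, saturation and signal above background. Spots flagged as outliers were left out, repeated spots averaged, and log2 intensity set relative to each array's 75th percentile over probes. The deposited table of processed intensity values, whose columns share 1 distribution with steps not given in the sources used here, served as an alternative. The brightest probe stood for a gene, and 19133 genes well above background on every array of a group were tested with limma 3.58.1 (R 4.3.3; 3 groups, 1 fit, Benjamini-Hochberg), after a test on simulated data. MEF 2 and MEF 3 were averaged because their difference was 0.62 to 1.09 times that of repeated spots (MEF 1 against MEF 2, 3.95 to 4.78 times). The number of arrays limits the precision. Since hepatocytes were 1 array, a gene well above background there was tested even where neither other group was so on every array. The filter fixed the direction of a gene well above background in hepatocytes alone. It favoured higher hepatocyte levels for a gene also detected on only some iHep or MEF arrays. Such genes are part of the list counts and of the shares of all genes. Promoters were aligned with Biopython 1.88. Probe positions are the scanner file's (mm8), and exon annotation was not used here. The members and lists were chosen with earlier results of these data known. Members and other Mup probes are all given. List genes were named where called (at most the 8 with the greatest log2 change per list and comparison) or where a list is described member by member, and the 8 genes most like the brightest member probe were named. Alternatives changed the background correction, scaling, filter, choice of probe, MEF samples, slide, replicate block and arrays left out. Some genes of the lists are counted but not reported here by name.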

Additional observations from a re-analysis of the deposited data

How the results depend on the processing

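Hepatocytes were above iHep cells and above MEF for all 7 member probes under every alternative run. The Mup4 difference between iHep cells and MEF changed sign in 1 of 12 alternatives, with a range of -0.62 to 1.46. The median difference of all genes was 0.14 between hepatocytes and MEF and 0.17 between hepatocytes and iHep cells, and quantile normalization lowered these by 0.15 and 0.20. The count of genes called between iHep cells and MEF was 4458, and became 7306 with 3 separate MEF samples and 1669 within slide 1, with fewer samples. Leaving out single arrays or MEF 2 and MEF 3 together gave 1642 to 4642, the lowest without MEF 1, and 2864 without iHep type 1; a lone MEF sample is then taken to vary as the rest do. With the replicate number as a block it was 5447, although the numbers do not pair the samples (deviations of same-numbered arrays correlated at 0.029, -0.015 and -0.00045). Counts for the other comparisons stayed within 1.5 times of 10232 (hepatocytes against MEF) and 9422 (hepatocytes against iHep cells). No called gene of the lists changed sign. Signals of the dim probes lay near background, where 1 array decides a reading.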

Other observations

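Sex-linked transcripts, chosen after their values were seen, differed between the arrays. Xist, the X-inactivation RNA, was not well above background in hepatocytes (-7.89) or in iHep types 1 and 2 (-7.97 and -8.30), and read 3.42 in type 3 and 1.26, 1.78 and 1.87 on MEF arrays 1, 2 and 3. Ddx3y, a Y-linked helicase gene, read 2.64 in hepatocytes, -0.81, 0.79 and -2.50 in iHep types 1, 2 and 3, and 0.06, -0.45 and -0.40 in MEF. Eif2s3y, also Y-linked, read 2.91 in hepatocytes, 0.19, 1.55 and -1.97 in iHep cells, and 0.64, 0.28 and 0.23 in MEF. The hepatocyte array thus had both Y-linked transcripts at their highest and Xist at background. Their relation to the male-biased genes or to the Mup probes was not tested.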
